A study of Mus musculus with 12 samples.

Results

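The CREB pathway genes described here are the transcription factor genes Creb1, Crem and Atf1, the CREB coactivator genes Crtc1, Crtc2 and Crtc3, and the salt-inducible kinase genes Sik1, Sik2 and Sik3. They were chosen by gene symbol, and all 9 were found among the 27179 genes of the count table and among the 16175 genes tested. RNA sequencing was done on epididymal white adipose tissue, the abdominal fat pad beside the epididymis, from 12 male C57BL/6J mice on chow. The epinephrine group of 6 mice was given sodium epinephrine into the peritoneum at 0.5 mg/kg and is listed at 18 to 23 weeks of age. The vehicle group of 6 mice was given saline at the same volume and is listed at 12 to 17 weeks. Fat was taken 1 h after injection in both groups, and no mouse carried a genetic modification according to the labels. The listed ages do not overlap between the groups, so listed age and treatment cannot be told apart. They also rise by exactly 1 week from each sample to the next in replicate order, through the vehicle and then the epinephrine group, so whether they are the ages of single mice is uncertain.

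Epinephrine acts on fat cells partly through beta-adrenergic receptors that raise cyclic AMP and activate protein kinase A. As background, protein kinase A phosphorylates CREB family proteins, which bind cyclic AMP response elements in DNA. The same rise in cyclic AMP inhibits the salt-inducible kinases. These kinases otherwise phosphorylate the CRTC coactivators and hold them in the cytoplasm, so that their inhibition lets CRTC proteins enter the nucleus and work with CREB. Crem and Sik1 are themselves known CREB target genes in other tissues. Most of this regulation acts on proteins, which were not measured here.

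The consensus cyclic AMP response element is TGACGTCA, which reads the same on both strands and contains both TGACG and its reverse complement CGTCA. RefSeq promoter windows of GRCm38.p6 ran from 250 bases before to 50 bases after the gene start. They were searched for 6 of the 9 genes (Creb1, Atf1, Crtc1, Crtc3, Sik2 and Sik3). Sik1 and Crtc2 had no window, and Crem was left out of the search. The letters were therefore not looked for in either gene called below. None of the 6 held the full letters TGACGTCA, which stand in 1.79% of 32851 windows of the same length. TGACG or CGTCA stood in 3 of the 6 (Atf1, Sik2 and Sik3) and in 20.8% of all windows. The 3 stretches are shown because they hold the response-element letters. None of the 6 genes searched passed the test below, so the letters cannot be set against the response. Capitals mark TGACG or CGTCA, and each line reads 5′ to 3′ on the strand of the gene. The Atf1 stretch is chr15:100227757-100227786 on the plus strand, the Sik2 stretch is chr9:51009051-51009080 on the minus strand across the gene start, and the Sik3 stretch is chr9:46012570-46012819 on the plus strand.
Atf1: gtgaccacgcggTGACGcagcacgccggcg
Sik2: gcccccTGACGtcggctcaCGTCAgcgccg
Sik3: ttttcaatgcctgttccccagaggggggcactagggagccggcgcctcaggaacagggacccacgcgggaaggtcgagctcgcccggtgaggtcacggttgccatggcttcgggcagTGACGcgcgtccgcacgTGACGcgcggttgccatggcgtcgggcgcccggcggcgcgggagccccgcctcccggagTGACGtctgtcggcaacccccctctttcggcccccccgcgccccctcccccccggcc
Distances are from the RefSeq gene start, which for Atf1 differs from the GENCODE start given with its position below. The Sik3 window held 3 matches, which began 133, 116 and 57 bases before the start. The Sik2 matches began 1 base before the start and at base 13 of the transcript, and the Atf1 match began 90 bases before the start. A match of letters is not evidence that a factor binds there. No match was found in the windows of Creb1, Crtc1 and Crtc3, which says only that these letters are not in those windows.

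Of the 9 genes, Crem and Sik1 were higher with epinephrine and the other 7 did not pass the test. Across all tested genes, 6.23% were called, 2.65% higher and 3.58% lower (edgeR quasi-likelihood test, Benjamini-Hochberg adjusted p below 0.05 over all genes). Of the members, 2 of 9 were higher and 0 of 9 lower. At an unadjusted p below 0.05, 1 member (Creb1) was lower. DESeq2, limma-voom with sample weights and limma on the deposited variance-stabilized values each also called Crem and Sik1 higher and 0 members lower. The median log2 fold change of the 9 genes was -0.021, against -0.00059 over all tested genes.

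The libraries held between 24821601 and 34405433 counts each, and the 9 genes were counted between 313 and 14820 times per library. The 10 adipocyte markers, Adipoq and Fabp4 among them, were all present. They summed to 20990 to 50640 CPM in epinephrine libraries and 15870 to 50700 CPM in vehicle libraries, where CPM is the read count divided by the TMM-scaled library total. Of them 0 were higher and 0 lower (edgeR; 1 higher and 0 lower at an unadjusted p below 0.05). The 12 epididymis markers, Gpx5 and Lcn5 among them, summed to 32.9 to 32670 CPM in epinephrine libraries and 11.1 to 47430 CPM in vehicle libraries. None of them was at 0 in every library. They were highest in epinephrine 1, epinephrine 2 and vehicle 2, and 0 of 12 passed the test (edgeR; also 0 at an unadjusted p below 0.05). Because these are bulk libraries, fewer cells of a type and less RNA per cell cannot be told apart.

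**Figure D1:**
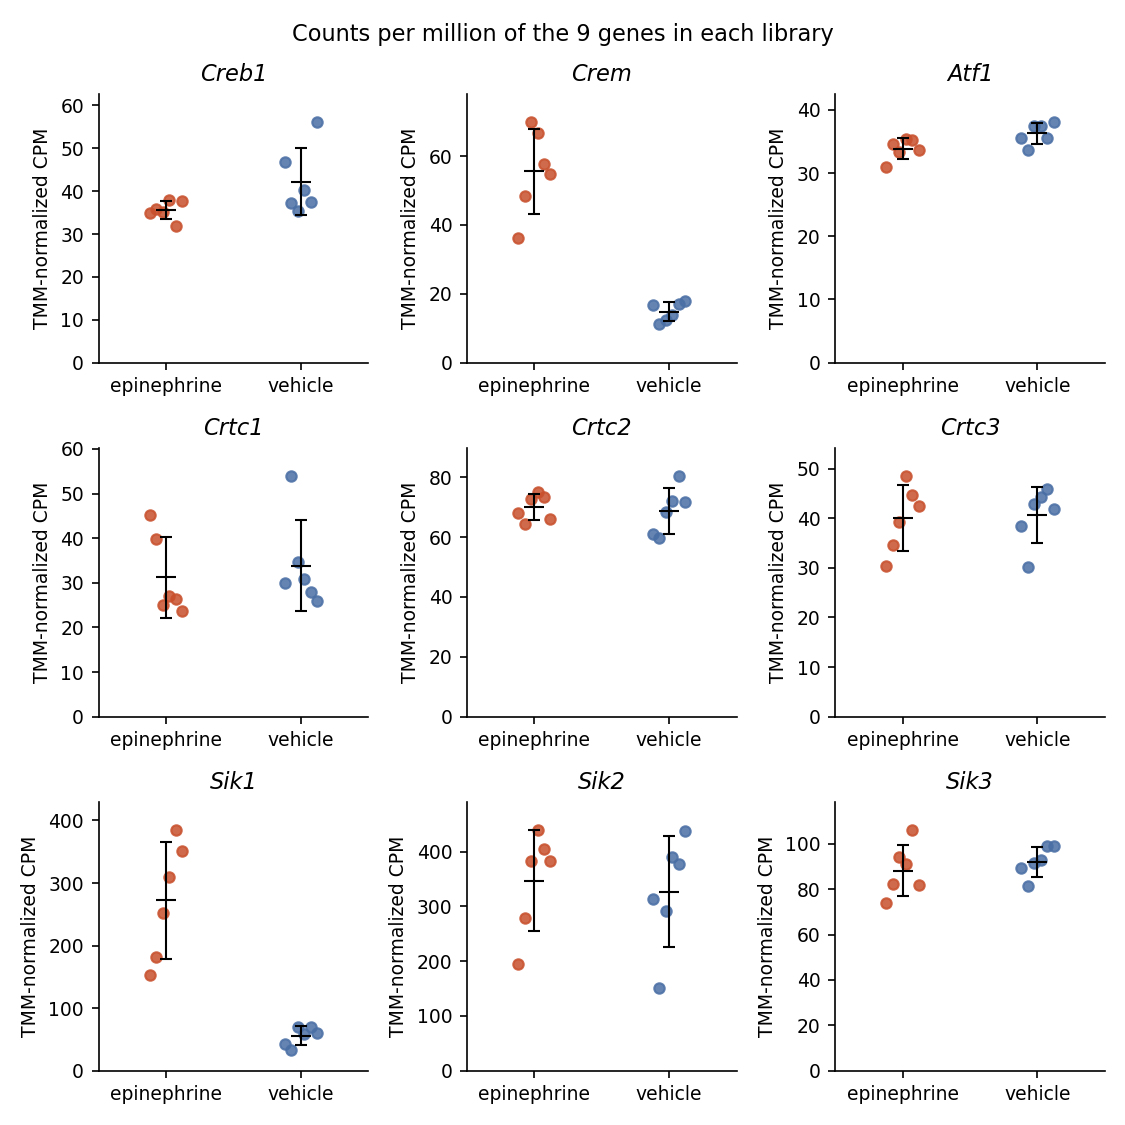
TMM-normalized CPM of each gene (y axis, from 0) in the 6 epinephrine and 6 vehicle libraries. Points are libraries and bars are mean ± SD; the groups are apart for Crem (lowest epinephrine library 36.1, highest vehicle library 17.8) and Sik1 (lowest epinephrine library 152, highest vehicle library 70.4), and overlap for the other genes.

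Among the CREB factor genes, Crem passed the test and Creb1 and Atf1 did not. Crem encodes both activators and repressors of cyclic AMP response elements, including the short inducible repressor ICER, which is made from a promoter inside the gene. It had a lowest value of 36.1, a median of 56.3 and a highest value of 69.8 CPM in epinephrine libraries, against 11.3, 15.3 and 17.8 CPM in vehicle libraries. Every epinephrine library was above every vehicle library, as was the case for 2.04% of all tested genes, while 2.74% of genes had every epinephrine library below. Of the members, 2 of 9 (Crem and Sik1) had all epinephrine libraries above and 0 of 9 had them below. Means were 55.6 ± 12.3 CPM with epinephrine and 14.8 ± 2.71 CPM with vehicle (SD, n = 6 each). This is a 3.74-fold rise, with a log2 fold change of 1.90 (SE 0.17, 95% interval 1.53 to 2.28, edgeR adjusted p = 0.000108). Among the epinephrine mice, epinephrine 1 was the lowest and epinephrine 3 the highest, at 36.1 and 69.8 CPM.

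Crem is a protein-coding gene on chromosome 18, from 3266048 to 3337748 on the minus strand of GRCm38. GENCODE M21 annotates 39 transcripts of it, from 26 distinct starts spread over 56670 bases, against 11 transcripts of Creb1 and 9 of Atf1. The deposited counts are summed per gene, so ICER, other repressors and activators of Crem were not separated. Exons of the opposite-strand gene Gm6225 share 472 bases with those of Crem, and that gene had 23 to 48 counts per library, far fewer than Crem at 313 to 1660.

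Creb1, the founding member of the family and a mostly constitutive activator, stood at 32.0, 35.5 and 38.0 CPM (lowest, median, highest) with epinephrine and at 35.5, 38.9 and 56.1 CPM with vehicle. The groups overlapped, with all 6 epinephrine libraries below the vehicle median, and the vehicle spread came from vehicle 1 and vehicle 6, at 46.8 and 56.1 CPM. Its log2 fold change was -0.25 (SE 0.11, 95% interval -0.48 to -0.0085, edgeR adjusted p = 0.268), so the unadjusted interval lay below 0 while the adjusted test did not pass. Creb1 runs along chromosome 1 from 64532645 to 64604548.

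Atf1, which forms dimers with Creb1 and has a similar kinase-inducible region, was the steadiest of the 9 genes. Its values were 30.9, 34.1 and 35.4 CPM (lowest, median, highest) with epinephrine and 33.6, 36.5 and 38.0 CPM with vehicle, a coefficient of variation of 4.80% with epinephrine and 4.64% with vehicle. All 6 epinephrine libraries were below the vehicle median, and the groups overlapped. The log2 fold change was -0.10 (SE 0.051, 95% interval -0.21 to 0.013, edgeR adjusted p = 0.365). Scaled by library size alone, which moved the median of all genes to -0.11, Atf1 was at -0.21 with an edgeR adjusted p of 0.0178. With the listed age as a covariate Atf1 was at -0.23 (edgeR adjusted p = 0.0952), below the 95% interval above. Atf1 is on chromosome 15, from 100227819 to 100261244.

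None of the 3 CRTC coactivator genes passed the test (edgeR; 0 at an unadjusted p below 0.05, and 0 with DESeq2). Crtc2, the coactivator best known from liver glucose production, was the highest of the CRTC genes per base of length. It stood at 64.5, 70.5 and 75.1 CPM (lowest, median, highest) with epinephrine and at 59.7, 70.0 and 80.3 CPM with vehicle. The epinephrine values lay inside the vehicle range. Its fold change was 1.02, with a 95% interval of 0.905 to 1.14 (edgeR log2 fold change 0.024, SE 0.077, adjusted p = 0.945), and its sign turned with upper quartile or library-size scaling.

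Crtc3, a coactivator known from studies of adipose tissue in mice, stood at 30.4, 40.9 and 48.5 CPM (lowest, median, highest) with epinephrine and at 30.2, 42.3 and 46.0 CPM with vehicle. Its fold change was 0.985, with a 95% interval of 0.812 to 1.20 (edgeR adjusted p = 0.974). Crtc1, best known from brain, stood at 23.7, 26.7 and 45.2 CPM with epinephrine and at 25.8, 30.4 and 53.9 CPM with vehicle. Its fold change was 0.922, with the wider 95% interval of 0.665 to 1.28 (edgeR adjusted p = 0.895). Crtc1 was highest in vehicle 2, epinephrine 1 and epinephrine 2, at 53.9, 45.2 and 39.9 CPM, the 3 libraries highest in epididymis markers. The other 9 libraries lay between 23.7 and 34.6 CPM. Without those 3 libraries its log2 fold change was -0.22 (edgeR adjusted p = 0.132), and without vehicle 2 it was 0.094 (edgeR adjusted p = 0.783). Crtc3 was lowest in the same libraries, at 30.2 (vehicle 2), 30.4 (epinephrine 1) and 34.7 CPM (epinephrine 2), against 38.5 to 48.5 CPM in the rest. With the listed age as a covariate, the log2 fold changes of Crtc1, Crtc2 and Crtc3 lay outside the intervals above. They were 0.83, -0.23 and -0.56 (edgeR adjusted p = 0.0624, 0.207 and 0.0595).

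**Figure D2:**
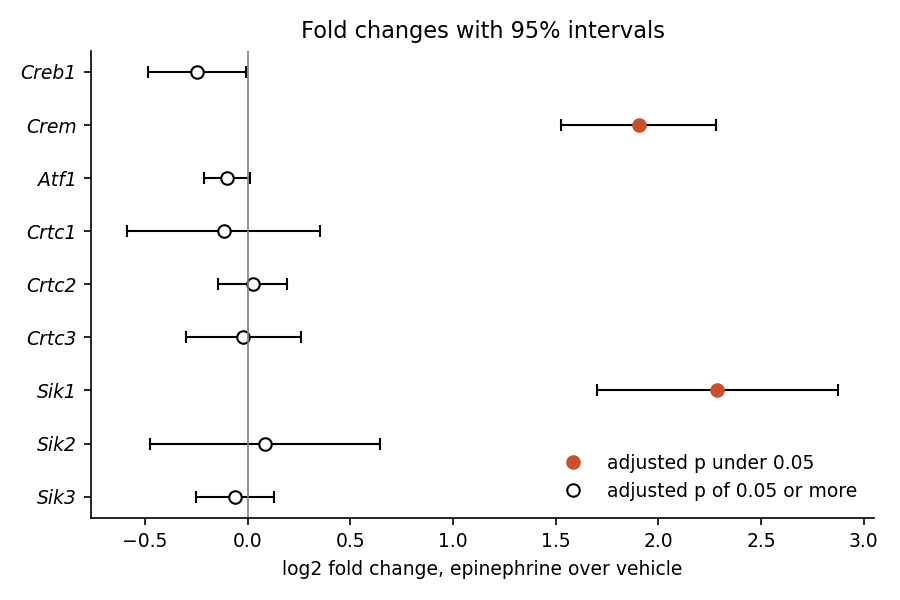
Log2 fold change of each gene (x axis, epinephrine over vehicle) with its 95% interval from the edgeR fit of 6 against 6 libraries. Filled points passed the adjusted p of 0.05: Crem at 1.90 and Sik1 at 2.29; the other 7 lie between -0.25 and 0.09.

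Of the salt-inducible kinase genes, which encode relatives of AMP-activated protein kinase that are switched on by the kinase LKB1, Sik1 passed the test. Sik1 had a lowest value of 152, a median of 281 and a highest value of 384 CPM in epinephrine libraries, against 32.9, 59.4 and 70.4 CPM in vehicle libraries. The groups did not overlap. Means were 272 ± 92.9 CPM with epinephrine and 55.7 ± 15.2 CPM with vehicle (SD, n = 6 each). The rise was 4.88-fold, with a log2 fold change of 2.29 (SE 0.27, 95% interval 1.70 to 2.88, edgeR adjusted p = 0.00055). Among all tested genes Sik1 had the 54th largest log2 rise and Crem the 98th.

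Sik1 and Crem were lowest within each group in libraries rich in epididymis markers. Epinephrine 1 and 2 had 152 and 182 CPM of Sik1, and epinephrine 3 to 6 had 253 to 384 CPM. Vehicle 2 had 32.9 CPM of Sik1, below the 42.2 to 70.4 CPM of its group. For Crem, epinephrine 1 and 2 had 36.1 and 48.5 CPM and epinephrine 3 to 6 had 54.9 to 69.8 CPM. Vehicle 2 had 11.3 CPM of Crem, below the 12.4 to 17.8 CPM of its group. Without those 3 libraries the log2 fold change was 2.43 for Sik1 (edgeR adjusted p = 4.38e-05) and 2.01 for Crem (edgeR adjusted p = 2.30e-05), so both were at least as large without them. Sik1 runs along chromosome 17 from 31844250 to 31855804 on the minus strand.

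The listed age rises with the replicate number in each group, so a fit with it as a covariate takes up any difference that runs with that number. With it, the log2 fold change of Sik1 was 0.94 and its call ended (edgeR adjusted p = 0.0597), while Crem stayed past the threshold at 1.43 (edgeR adjusted p = 0.0126). Among replicate numbers 1 to 3 alone, where 0 of all tested genes were called, the log2 fold changes were 2.03 for Sik1 (edgeR adjusted p = 0.248) and 1.95 for Crem (0.227).

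Sik2, the kinase of the family long associated with adipocytes, was the highest of the 9 genes in both groups. It stood at 195, 383 and 439 CPM (lowest, median, highest) with epinephrine and at 151, 346 and 437 CPM with vehicle. The ranges almost coincided. Its fold change was 1.06, with a 95% interval of 0.720 to 1.56 (edgeR log2 fold change 0.086, SE 0.26, adjusted p = 0.941), and the 4.88-fold change of Sik1 lay outside that interval. With the listed age as a covariate Sik2 was at -0.99 (edgeR adjusted p = 0.0826), also outside it. Its exons share 1429 bases with those of Ppp2r1b on the opposite strand, a gene with 6298 to 15468 counts per library. Whether counting used strand is not given in the sources used here, so reads of the shared stretch may have been counted for either gene, which makes the level of Sik2 uncertain.

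The spread of Sik2 within each group moved with the marker levels. It was lowest in vehicle 2, epinephrine 1 and epinephrine 2, with 151, 195 and 278 CPM. The remaining 9 libraries had 291 to 439 CPM. In the same 3 libraries the adipocyte markers summed to 15870, 20990 and 31070 CPM, against 34320 to 50700 CPM in the others. The part of either tissue in the level of Sik2 was not tested.

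Sik3, a broadly expressed kinase gene known in mice for its role in skeletal growth, stood at 73.9, 86.7 and 105.9 CPM (lowest, median, highest) with epinephrine and at 81.2, 92.1 and 99.1 CPM with vehicle. The epinephrine range enclosed the vehicle range. The fold change was 0.958, with a 95% interval of 0.840 to 1.09 (log2 fold change -0.062, SE 0.087, edgeR adjusted p = 0.845). On the log2 scale that interval was -0.25 to 0.13. With the listed age as a covariate Sik3 was at -0.36 (edgeR adjusted p = 0.0931), outside it. Sik2 and Sik3 lie on chromosome 9, Sik2 from 50892801 to 51009073 and Sik3 from 46012820 to 46224194.

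**Figure D3:**
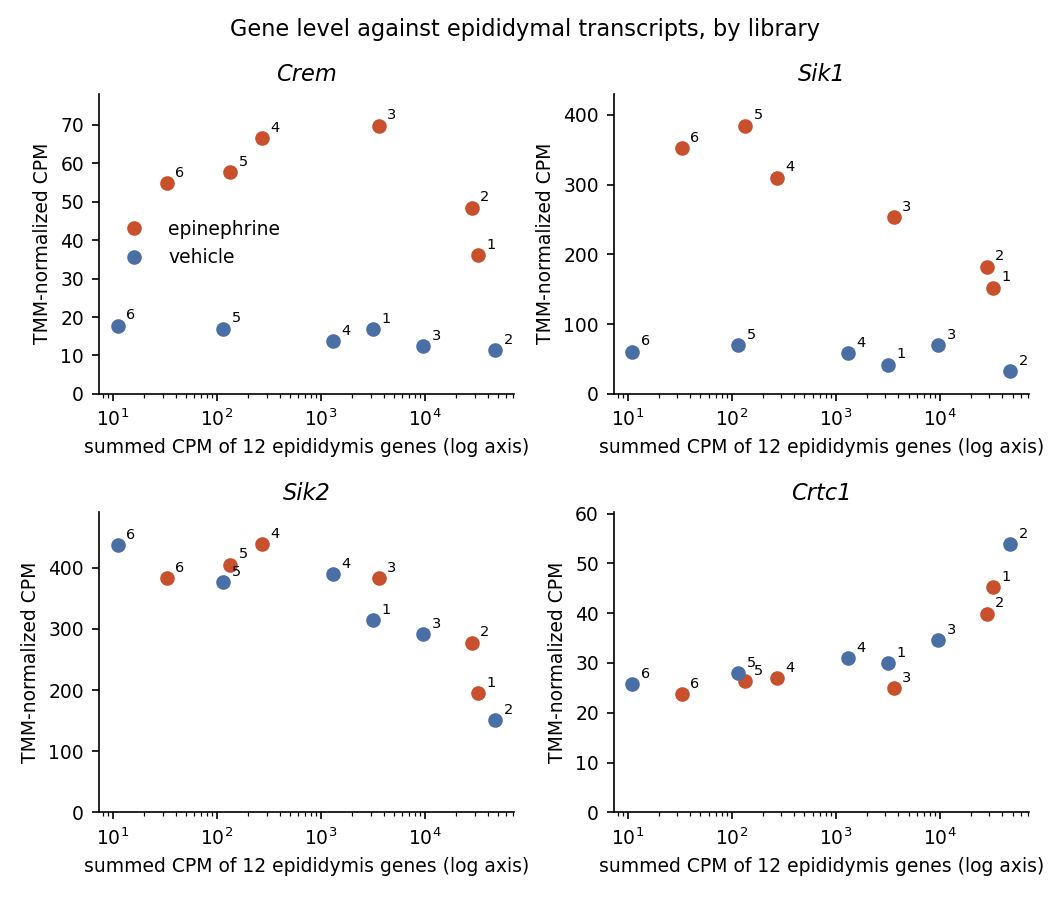
Level of 4 genes in TMM-normalized CPM (y axes, from 0) against the summed CPM of 12 epididymis markers (x axes, log scale). Points are libraries with their replicate number; Crtc1 is highest and Sik2 lowest in vehicle 2, epinephrine 1 and epinephrine 2, while Crem and Sik1 separate by group at low and at high marker levels.

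The balance between paralogs within a library does not depend on how libraries are scaled, and 4 such ratios were compared. There were between 1.03 and 1.98 counts of Crem for each count of Creb1 in epinephrine libraries, and between 0.304 and 0.453 in vehicle libraries. The log2 ratio of Crem to Creb1 averaged 0.61 ± 0.34 with epinephrine and -1.51 ± 0.20 with vehicle (SD, n = 6 each). That difference of 2.12 on the log2 scale had p = 0.00216 (exact two-sided permutation test, the smallest it can give; adjusted p = 0.00216 over the 4 ratios). Crem therefore had more counts than Creb1 in all 6 epinephrine libraries and fewer in all 6 vehicle libraries.

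The ratio of Crem to Atf1 differed by 1.99 on the log2 scale, that of Sik1 to Sik2 by 2.15 and that of Sik1 to Sik3 by 2.33. Each had p = 0.00216 and an adjusted p of 0.00216 (exact two-sided permutation test, 6 libraries per group). Counts of Sik1 per count of Sik3 ran between 2.06 and 4.31 with epinephrine and between 0.405 and 0.768 with vehicle. Counts of Sik1 per count of Sik2 ran between 0.657 and 0.949 with epinephrine and between 0.134 and 0.241 with vehicle, so Sik2 had more counts than Sik1 in every library. In each ratio the groups did not overlap. The ratios share genes with each other and with the fold changes above, so they are not independent of them. Each set Crem or Sik1, whose groups did not overlap, over a paralog that did not pass the test. Their p-values therefore largely restate the calls of Crem and Sik1.

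**Figure D4:**
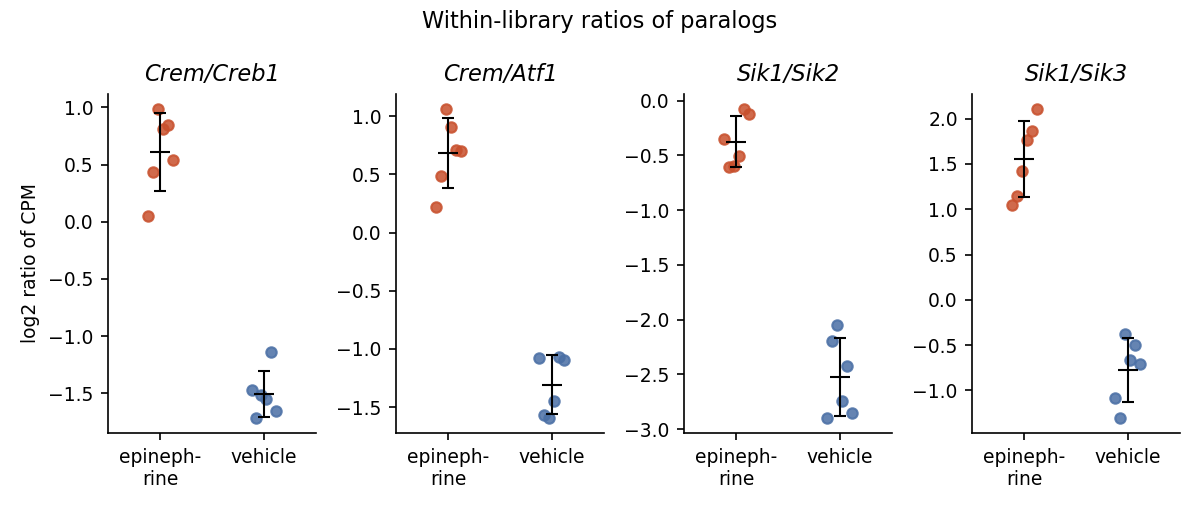
Log2 ratio of the CPM of 2 genes in the same library (y axes, one scale per panel) for the 6 epinephrine and 6 vehicle libraries. Points are libraries and bars are mean ± SD; in each of the 4 panels all epinephrine libraries lie above all vehicle libraries, by 1.99 to 2.33 between the means.

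Levels between genes were compared per base, as TMM-normalized CPM per kilobase of the deposited gene length. In epinephrine libraries the order of means was Sik2 (97.7), Sik1 (60.4), Crtc2 (26.6), Atf1 (14.5), Crem (14.1), Sik3 (14.0), Crtc3 (7.83), Crtc1 (5.50) and Creb1 (4.23). In vehicle libraries it was Sik2 (92.0), Crtc2 (26.2), Atf1 (15.6), Sik3 (14.6), Sik1 (12.4), Crtc3 (7.94), Crtc1 (5.97), Creb1 (5.01) and Crem (3.77). Crem thus stood between Atf1 and Sik3 with epinephrine and last with vehicle, and Sik1 stood between Sik2 and Crtc2 with epinephrine and between Sik3 and Crtc3 with vehicle.

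Several neighbours in these orders had overlapping ranges over libraries. With epinephrine, Sik1 (33.8 to 85.2) overlapped Sik2 (54.8 to 123) and lay above Crtc2 (24.5 to 28.6), while Atf1 (13.3 to 15.2), Crem (9.18 to 17.7) and Sik3 (11.8 to 16.8) overlapped each other. With vehicle, Sik2 (42.6 to 123) lay above Crtc2 (22.7 to 30.5), and Crtc2 above Atf1 (14.4 to 16.3). Sik3 (12.9 to 15.8) and Sik1 (7.30 to 15.6) overlapped Atf1 in vehicle libraries, and Crem (2.88 to 4.52) overlapped Creb1 (4.21 to 6.66). The deposited lengths join all exons of a gene, 8421 bases for Creb1 and 2329 bases for Atf1, so a gene whose cells use short transcripts has its level understated.

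The shares within each family show the same shift. Per base, Crem made up 42.5% ± 5.13 of the counts of the CREB factor genes with epinephrine and 15.4% ± 1.99 with vehicle (SD, n = 6 each). Atf1 made up 44.5% ± 3.78 with epinephrine and 64.1% ± 3.55 with vehicle, and Creb1 made up 13.0% ± 1.60 with epinephrine and 20.5% ± 2.35 with vehicle. Sik1 made up 34.6% ± 3.83 of the SIK counts with epinephrine and 10.6% ± 2.11 with vehicle, and Sik2 56.8% ± 3.31 with epinephrine and 76.3% ± 4.97 with vehicle. The CRTC shares stayed close, with Crtc2 at 66.6% ± 1.98 with epinephrine and 65.2% ± 3.31 with vehicle. Because shares sum to a whole, the lower shares of Atf1, Creb1 and Sik2 mirror the higher counts of Crem and Sik1.

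**Figure D5:**
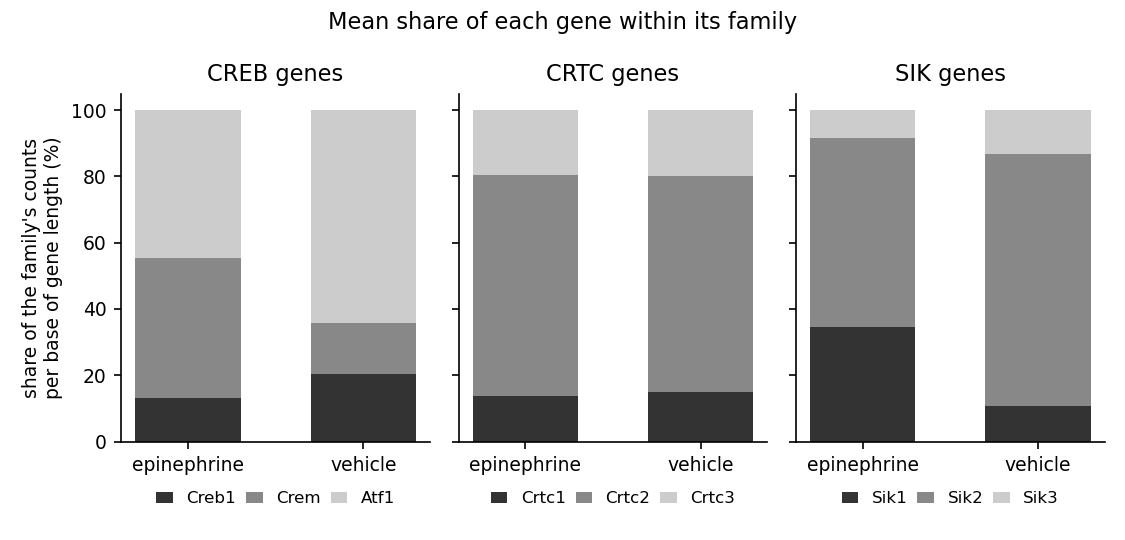
Mean share (y axis, percent, n = 6 libraries per bar) of each gene in its family's counts per base of gene length. Crem takes 42.5% of the CREB factor genes with epinephrine and 15.4% with vehicle, Sik1 takes 34.6% of the SIK genes with epinephrine and 10.6% with vehicle, and Crtc2 takes 66.6% of the CRTC genes with epinephrine and 65.2% with vehicle.

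Of 15 genes for CREB coactivators and upstream kinases, 2 were higher and 1 lower, where 2.65% and 3.58% of all tested genes were. They had a median log2 fold change of 0.0031 against -0.00059 over all genes. Rps6ka1, which encodes the ribosomal S6 kinase RSK1, fell to 16.9 ± 2.24 CPM with epinephrine, against 24.1 ± 3.63 CPM with vehicle (SD, n = 6 each). On the log2 scale the fold change was -0.51, with an SE of 0.11 and an edgeR adjusted p of 0.0206. Mapkapk2, a kinase gene of the p38 pathway, was at 192 ± 25.0 CPM with epinephrine and 149 ± 10.4 CPM with vehicle, a log2 fold change of 0.37 with an SE of 0.092 (edgeR adjusted p = 0.0351). Crebbp, which encodes the coactivator CBP, had a log2 fold change of 0.21 with an SE of 0.057 (edgeR adjusted p = 0.0495), a call that ended with the replicate block (0.0988). Leaving out 1 library ended the call of Crebbp without vehicle 1, 3, 4 or 6 or epinephrine 2, 3, 4, 5 or 6 (edgeR adjusted p between 0.0659 and 0.120). It ended that of Mapkapk2 without vehicle 1, 3, 4 or 6 or epinephrine 3, 4, 5 or 6 (0.0538 to 0.0877) and that of Rps6ka1 without vehicle 3 or epinephrine 3 or 4 (0.0538 to 0.0563).

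Of 10 tested genes among other CREB, ATF and CREB3 family members, 0 were higher and 1 lower, with a median log2 fold change of 0.11 (edgeR; 1 was higher at an unadjusted p below 0.05, and DESeq2 called 0 higher). The lower gene was Crebl2, a small CREB-like factor gene known from work on fat cell differentiation in mice. It was at 29.0 ± 2.43 CPM with epinephrine and 36.3 ± 3.13 CPM with vehicle (SD, n = 6 each). On the log2 scale the fold change was -0.32, with an SE of 0.074 and an edgeR adjusted p of 0.0245, and the call ended with the replicate block (0.0501). It also ended without vehicle 1, 3 or 4 or epinephrine 2, 3 or 4 (0.0506 to 0.0658).

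The LKB1 complex and the kinases related to AMP-activated protein kinase showed 2 higher and 0 lower of 16 tested, with a median log2 fold change of 0.033 (edgeR; 0 were lower at an unadjusted p below 0.05, and DESeq2 called 0 lower). Nuak2, a relative of the SIK kinases activated by LKB1, rose 1.92-fold to 14.9 ± 3.70 CPM with epinephrine, against 7.78 ± 0.989 CPM with vehicle (SD, n = 6 each). That is a log2 fold change of 0.94 with an SE of 0.17 (edgeR adjusted p = 0.00702). Mark3, another such relative, had a log2 fold change of 0.18 with an SE of 0.042 (edgeR adjusted p = 0.0222), a call that ended with the replicate block (0.102) and without vehicle 1 or 3 or epinephrine 2, 4 or 6 (0.0511 to 0.0611).

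Of 17 genes for SIK substrates, CRTC phosphatases and 14-3-3 proteins, which hold phosphorylated CRTC in the cytoplasm, 2 were higher and 0 lower. Their median log2 fold change was 0.12 (edgeR; 1 was lower at an unadjusted p below 0.05, DESeq2 called 0 lower and limma-voom 1). Ppp2ca, a catalytic subunit gene of protein phosphatase 2A, rose 1.67-fold to 368 ± 56.1 CPM with epinephrine, against 221 ± 22.0 CPM with vehicle (SD, n = 6 each). That is a log2 fold change of 0.74 with an SE of 0.11 (edgeR adjusted p = 0.00282), and its groups did not overlap. Ywhah, a 14-3-3 gene, had a log2 fold change of 0.24 with an SE of 0.050 (edgeR adjusted p = 0.0128), a call that ended with the replicate block (0.0643) and without epinephrine 4 (0.0504).

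Other settings ended some of these list calls too. With the listed age as a covariate the log2 fold changes were 0.44 for Nuak2, 0.30 for Ppp2ca, 0.0050 for Mapkapk2, 0.055 for Crebbp, 0.16 for Mark3 and 0.17 for Ywhah (edgeR adjusted p between 0.169 and 0.981), while Rps6ka1 and Crebl2 kept theirs. That fit called 2339 of all 16175 tested genes higher and 1528 lower. The list counts in it were 0 higher and 3 lower for the coactivators and upstream kinases, and 1 and 1 for the other CREB family genes. They were 1 and 2 for the LKB1-related kinases, and 1 and 1 for the SIK substrates and phosphatases. Among replicate numbers 1 to 3 alone, all 4 lists had 0 calls. Among numbers 4 to 6 alone, where 696 of all tested genes were higher and 632 lower, some calls ended as well. These were Rps6ka1, Crebbp, Crebl2, Mark3 and Ywhah (edgeR adjusted p between 0.0957 and 0.271), while Mapkapk2, Nuak2 and Ppp2ca kept theirs. Library-size scaling ended those of Crebbp, Mark3 and Ywhah, upper quartile scaling and the unfiltered fit those of Mapkapk2 and Crebbp, and the unfiltered fit also that of Mark3. Without the 3 libraries high in epididymis markers, the higher counts were 1 among the coactivators and upstream kinases (Crebbp was lost, edgeR adjusted p = 0.0816), 3 among the LKB1-related kinases and 3 among the SIK substrates and phosphatases. In the fit without them, 786 of 16134 tested genes were higher.

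Of 28 genes known as CREB targets, Crem and Sik1 included, 18 were higher and 0 lower, where 2.65% of all tested genes were higher and 3.58% lower. They had a median log2 fold change of 1.84 (edgeR; 1 was lower at an unadjusted p below 0.05, and DESeq2 called 1 lower), and 19 were higher without the 3 libraries high in epididymis markers. Without those 3 libraries 786 of 16134 tested genes were higher. With the listed age as a covariate 10 of the 28 targets were higher and 2 lower. That fit called 2339 of all 16175 tested genes higher and 1528 lower. Among replicate numbers 1 to 3 alone, 0 of the targets were called either way. The list was put together with earlier results of these data known, so its count is a description. Besides Crem, the smallest p-values belonged to the nuclear receptor genes Nr4a2 and Nr4a3, the phosphatase regulator gene Ppp1r15a, the repressor gene Nfil3 and the insulin signalling gene Irs2, with log2 fold changes of 3.56, 4.61, 2.07, 2.53 and 1.98. Not all known targets passed. Ppargc1a and Pde4b, a coactivator gene and a cyclic AMP phosphodiesterase gene, had log2 fold changes of 0.59 and 0.27 (edgeR adjusted p = 0.329 and 0.846).

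Genes whose values ran most like those of Sik1 and Crem were found by the root mean square difference of log2 CPM, each gene centred on its vehicle mean, over the 12 libraries and 13090 genes. For Sik1 they were Hspb1, a small heat shock protein gene (0.180), Tnfrsf10b, a death receptor gene (0.189), Enc1 (0.247), Fosl2, an AP-1 factor gene (0.260), and Snord14e, a small nucleolar RNA gene (0.294). Snord14e lies within Hspa8, so its reads may come from the host transcript. For Crem they were Cdkn1a, a cell cycle inhibitor gene (0.195), Itprip (0.198), Jund, an AP-1 factor gene (0.225), Dnajb4, a co-chaperone gene (0.235), and Noct, a circadian deadenylase-family gene (0.237). Between Sik1 and Crem themselves the difference was 0.451. The 10 genes named had log2 fold changes between 1.73 and 2.55, and each passed the test, which the choice of genes near Sik1 and Crem in all libraries already favoured. With the listed age as a covariate, the calls of Fosl2, Snord14e and Noct ended, at log2 fold changes of 0.76, 1.15 and 0.69 (edgeR adjusted p = 0.164, 0.120 and 0.126).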

How the data were processed

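The authors deposited whole-number counts of reads per Entrez gene, with gene lengths in bases, and a second table of variance-stabilized values on a log2-like scale for 20185 genes. Per the labels' protocols, total RNA was made into libraries using the SMARTER mRNA-Seq kit. FastQC, cutadapt, HISAT2, featureCounts, DESeq2 and mm10 are named, per the submitters' processing notes. Versions, annotation and strand setting: not given in the sources used here. The depth of 24821601 to 34405433 counts gives each member at least 313 counts per library.

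Genes were filtered with filterByExpr (minimum count 10, total 15), scaled with TMM and tested in R 4.3.3 with edgeR 4.0.16 (glmQLFit, robust; glmQLFTest). Adjustment covered all 16175 tested genes, and calls needed an adjusted p below 0.05. Standard errors are the unshrunk log2 fold change divided by the root of F, and intervals use the fit's degrees of freedom. Log2 CPM used a prior count of 1. Rows without a symbol (1312, at most 0.315% of counts) were kept. Replicates are separate mice per the labels. Positions are from GENCODE M21 (GRCm38), and promoters from RefSeq GRCm38.p6. The edgeR script was tested on simulated data.

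The 9 members, 5 pathway lists and 7 marker lists were chosen with earlier results of these data known. Named genes were all members, list genes past the threshold (6 for CREB targets) and the 5 nearest to Sik1 and Crem; Ppargc1a and Pde4b were chosen after their values were seen. Of the marker lists not described with the results, macrophage (7), fibroblast (6) and mesothelial (6) genes had 0 calls (edgeR and unadjusted p below 0.05 alike), endothelial genes 1 higher of 7 (Cldn5) and lymphocyte genes 1 lower of 7 (Ncr1). Deviations from the group mean correlated between the 2 libraries of each replicate number (r across genes 0.262 to 0.799, all above 0.1), and an alternative blocks on that number. A shared difference of libraries 1 to 3 and 4 to 6 would give the same correlations. The best-correlated library of the other group had the same number only for epinephrine 2, epinephrine 6 and vehicle 4. Other alternatives were 3 scalings, 2 filters, DESeq2 1.42.0, limma 3.58.1 on voom and variance-stabilized values, age and epididymal score as covariates, subsets of libraries, and a threshold of 0.01.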

Additional observations from a re-analysis of the deposited data

Results flagged for a closer look

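Crtc1 in vehicle 2 stood apart from the other vehicle libraries, at 53.9 CPM against 25.8 to 34.6 CPM. Its gap to the next library was 0.688 of the group's range, above Dixon's 95% limit for 6 samples. It was the single such value among the 18 sets of 6 libraries looked at, and chance gives about 1 in 20. Vehicle 2 also had the highest sum of epididymis markers, 47430 CPM, and the lowest of adipocyte markers, 15870 CPM. Their part in the value was not tested.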

How the results depend on the processing

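Crem and Sik1 were the 2 higher members and 0 were lower in all settings but 3: with the listed age as a covariate 1 was higher, among numbers 1 to 3 alone 0 were higher, and with library-size scaling 1 (Atf1) was lower. With the replicate block, 2 members were higher and 0 lower, among the members, the called list genes named and the genes nearest to Sik1 and Crem, blocked calls changed only where given beside them, and 19 CREB targets were higher and 1 lower. Leaving out 1 library gave log2 fold changes of 1.83 to 2.00 for Crem and 2.16 to 2.41 for Sik1, each past the threshold. Signs turned only in members that did not pass. Crtc1 was at 0.83 with age and between -0.25 and 0.094 without 1 library. Crtc2 was at -0.011 with upper quartile scaling, -0.080 with library-size scaling, -0.23 with age, -0.064 among numbers 4 to 6, and between -0.0088 and 0.072 without 1 library. Crtc3 was at 0.0023 with RLE scaling, 0.00055 with DESeq2, 0.039 without the 3 libraries high in Gpx5, 0.037 among numbers 4 to 6, and between -0.081 and 0.046 without 1 library. Sik2 was at -0.020 with library-size scaling, -0.99 with age, and between -0.040 and 0.21 without 1 library. Among numbers 1 to 3 and 4 to 6 the ratio differences were 2.06 and 2.18 (Crem to Creb1), 2.00 and 1.98 (Crem to Atf1), 1.86 and 2.44 (Sik1 to Sik2), and 2.12 and 2.54 (Sik1 to Sik3). Each had p = 0.10, the smallest an exact test of 3 against 3 allows.

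The background counts moved more. Against 428 higher genes, there were 228 at an adjusted p of 0.01, 760 with DESeq2, 1026 with limma-voom, 2339 with age, 786 without the libraries high in Gpx5, 0 among numbers 1 to 3, 696 among numbers 4 to 6, and 317 to 549 without 1 library. Against 579 lower genes, there were 185, 873, 1503, 1528, 1028 and 0 under the first 6 of these settings, 1448 with library-size scaling, 365 with the replicate block, 943 with the epididymal score, and 276 to 797 without 1 library. The causes were not tested.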
